A study of Danio rerio with 2 samples.

Results

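The genes described here are 7 named members of the zebrafish fatty acid binding protein family: fabp10a, fabp1a, fabp1b.1, fabp2, fabp3, fabp6 and fabp11a. They were chosen by name, by a rule that uses no measured value, but with earlier results of these data known. By matching transcript accessions to current gene symbols, 5 of the 7 were found among 17963 genes, each as a single transcript: fabp10a, fabp1b.1, fabp2, fabp3 and fabp11a, whose current symbol is fabp4a. The genes fabp1a and fabp6 were not matched and were not analysed here. Of 17991 transcripts, 9463 were matched to a symbol. Below, a listed gene said to be in the tables is one that was matched, and unmatched transcripts may hold others. Another 2 family genes outside the list, fabp7a and fabp7b, were present and are given beside the members.

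The arsenate group was 1 library of liver RNA from wildtype zebrafish, 3 months old, exposed to sodium arsenate for 96 h. The water group was 1 library of liver RNA from wildtype fish of the same age kept in water, and the labels describe the fish of both groups as siblings. Tanks of 3 L held around 15 adults each, and the sources used here do not give the sex of the fish, the arsenate concentration or the number of livers behind each library. The study asked which liver genes differ after arsenic exposure, using 3' SAGE, in which a short tag near the 3' end of a transcript is sequenced and counted.

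Fatty acid binding proteins are small cytosolic carriers that hold a fatty acid, a bile acid or another lipid inside a barrel-shaped pocket and move it between membranes, enzymes and nuclear receptors. The forms are named for the organ in which they were first found. In fish liver the main form is Fabp10a, a bile acid and fatty acid binder made by hepatocytes, whereas Fabp1b and Fabp2 belong mainly to absorbing cells of the intestine. Fabp3 is the heart and muscle form of mammals, and Fabp11a is a fish relative of the mammalian adipocyte form.

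Levels are in RPM, the tags of a gene scaled to a fixed total common to both libraries. The libraries are called exposed liver and control liver below. Exposed liver held 4420935 tags and control liver 2592679, so that 1 tag was worth 0.226 RPM in exposed liver and 0.386 RPM in control liver. With 1 library per group, no difference below has a replicate check and none was tested between the conditions. The 95% intervals given with ratios and shares are exact (Clopper-Pearson) and cover counting error only, since tags that are PCR copies are not independent molecules. A gene was called higher or lower when it had at least 10 tags over both libraries and its ratio of RPM + 1, arsenate over water, was at least 2 or at most 0.5. Because a tag is taken per transcript, RPM is not divided by transcript length, and levels of different genes are compared here as tags, not as molecules corrected for tag yield. Tags of close family copies may have been shared or split in the authors' mapping, which leaves the value of each form uncertain to that extent.

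All 5 members found had fewer RPM in exposed liver than in control liver. The liver form fabp10a and the intestinal forms fabp1b.1 and fabp2 were called lower, and fabp3 and fabp11a were lower by less than 2-fold. The count of 3 members lower and 0 higher stands beside a background of 14.4% of the 7839 genes tested called lower and 15.6% called higher, 29.9% in all. These were 1222 genes higher and 1125 lower, or 1680 higher and 975 lower when the 10 genes with the most tags in each library were left out of the totals, with the same count of members. Ratios below 1 were found for 48.0% of all genes tested. The median log2 ratio, computed with 0.5 prior tags, was -1.98 over the 5 members and 0.03 over all genes tested. With a limit of 1.5-fold all 5 members were lower, beside 24.4% of genes tested lower and 27.8% higher. With a limit of 4-fold, fabp10a and fabp2 were lower, beside 4.48% lower and 3.87% higher. An exact binomial test with Benjamini-Hochberg adjustment and a ratio of at least 2, which sets these libraries and not the conditions against each other, placed fabp10a, fabp1b.1 and fabp2 among the 13.6% of genes lower, with 13.8% higher. Among genes with a mean of at least 100 RPM, a level that 4 of the 5 members reached, 22.1% were called lower and 15.5% higher.

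**Figure D1:**
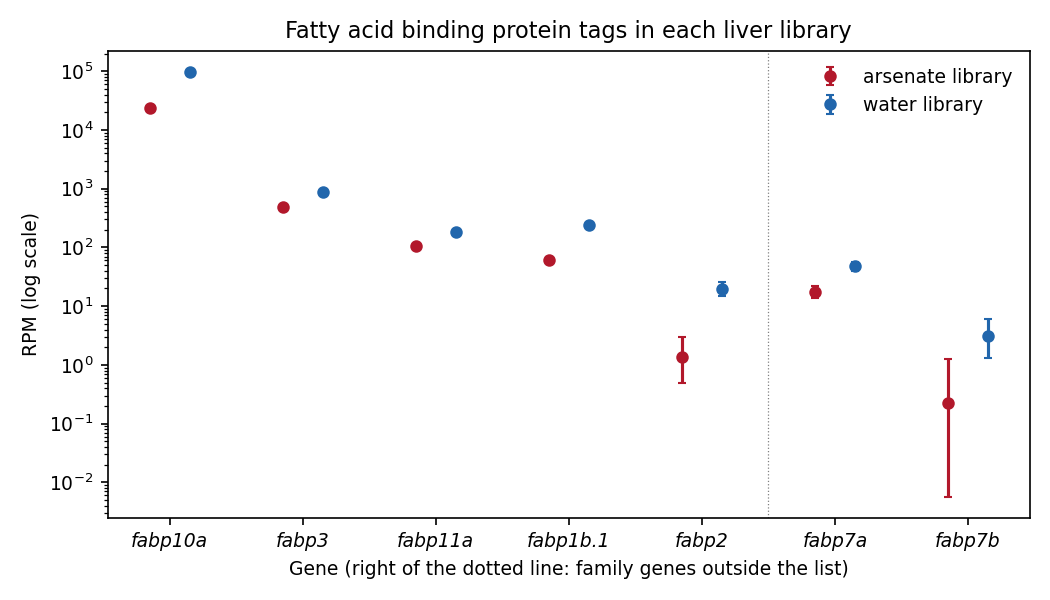
RPM of each gene (log axis) in exposed liver (left point of each pair) and the water library (right point), with exact 95% counting intervals that are narrower than the points for the abundant genes. The arsenate point lies below the water point for all 7 genes, from 23450 RPM against 96575 RPM for fabp10a to 1 tag against 8 tags for fabp7b.

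The liver form dominated the family in both libraries. The fabp10a gene had 103673 tags, or 23450 RPM, in exposed liver and 250387 tags, or 96575 RPM, in control liver. It was 4.12-fold lower in exposed liver, with a counting interval of 4.09 to 4.15. It took 2.35% of all tags in exposed liver (2.33 to 2.36) and 9.66% in control liver (9.62 to 9.69). By tag count it ranked number 5 among all genes in exposed liver and number 1 in control liver.

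The 73124 RPM by which fabp10a was lower made up 20.2% of the summed RPM differences of all genes that were lower in exposed liver. The next gene by this measure was lower by 10380 RPM, so the fabp10a difference was 7.05 times as large. A high share of tags in 1 gene also enters the scale of all others: without fabp10a in the library totals, every log2 ratio moved by -0.11. By ratio, other abundant genes stood lower still. Of 138 genes with a mean of at least 1000 RPM, 17 had a lower log2 ratio than fabp10a, and the median of the 138 was -0.56. The 17 included exocrine pancreas markers, among them prss59.1, 23.2-fold lower in exposed liver, and ela2l, 21.0-fold lower. They also included the ribosomal protein gene rpl26, 12.8-fold lower, and the apolipoprotein gene apoa1a, 5.83-fold lower.

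In bulk RNA, fewer hepatocytes and less fabp10a RNA per hepatocyte cannot be told apart. Of 10 listed hepatocyte markers 5 were matched to a transcript in the tables, fabp10a included, and none of these was at 0 in either library. Of the other 4, 1 was called lower and 3 neither, with a median log2 ratio of -0.68, and they summed to 7619 RPM in exposed liver and 12162 RPM in control liver. The apolipoprotein gene apoa2 was at 6372 RPM in exposed liver and 11174 RPM in control liver, while the copper carrier gene cp, for ceruloplasmin, was at 1199 RPM in exposed liver and 913 RPM in control liver. The protease inhibitor gene serpina1 was at 47.7 RPM in exposed liver and 69.8 RPM in control liver. The marker called lower was rbp4, the plasma retinol carrier gene, with 1 tag in exposed liver and 11 in control liver. Tags of fabp10a per tag of a marker do not depend on library scaling. This quantity was lower in exposed liver 2.35-fold for apoa2 (2.31 to 2.39), 2.82-fold for serpina1 (2.3 to 3.45) and 5.41-fold for cp (5.15 to 5.68). For rbp4 it was 4.55-fold higher in exposed liver, with an interval of 0.662 to 196 that does not settle the direction. For the 4 markers together, most of whose tags are those of apoa2, it was 3.08 in exposed liver and 7.94 in control liver. The 4 markers do not stand for all plasma protein genes. Outside the list, and picked by their ratios, apoa1a was 5.83-fold lower in exposed liver, ahsg2 4.63-fold and bfb 4.09-fold, while apobb.1 was not called lower.

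The intestinal forms were present at lower levels. The fabp1b.1 gene, a fish duplicate of the gene that encodes the mammalian liver form, had 273 tags, or 61.8 RPM, in exposed liver and 634 tags, or 245 RPM, in control liver. It was 3.96-fold lower in exposed liver (3.43 to 4.58), an interval that contains the fabp10a ratio. It took 0.00618% of tags in exposed liver and 0.0245% in control liver. The fabp2 gene, which encodes the classical intestinal fatty acid carrier of enterocytes, had 6 tags, or 1.36 RPM, in exposed liver and 51 tags, or 19.7 RPM, in control liver. Its ratio was the furthest from equality of the 5 members, 14.5-fold lower in exposed liver, but with 6 tags the interval ran from 6.22 to 41.3. On the scale of RPM + 1, which understates the change of low genes, the fabp2 ratio was 0.114.

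Enterocyte markers were also mostly lower. Of 13 listed, fabp2 included, 10 were in the tables and 8 had at least 10 tags, of which 5 were called lower, 1 higher and 2 neither. Without fabp2, the other 7 with at least 10 tags had a median log2 ratio of -2.03, with 4 called lower, 1 higher and 2 neither. Of markers of the absorbing surface, the villin gene vil1 was 6.05-fold lower (3.73 to 10.2) and the aminopeptidase gene anpepb.1 4.08-fold lower (3.23 to 5.18). Both were named after their values were seen. The most abundant markers differed less. The apolipoprotein gene apoa4b.2 was 1.72-fold lower and tm4sf4 had a ratio of 0.960 (0.814 to 1.13), while the cadherin gene cdh17 was higher in exposed liver, at a ratio of 2.22. Most of the marker tags were in apoa4b.2 and tm4sf4. The sum over all 9 markers in the tables was 299 RPM in exposed liver and 527 RPM in control liver, a 1.76-fold difference. Per tag of these 9 markers together, fabp1b.1 was 2.24-fold lower in exposed liver (1.91 to 2.65) and fabp2 8.21-fold lower (3.51 to 23.5). These 2 values rest mostly on apoa4b.2 and tm4sf4 and were not computed per tag of vil1 or anpepb.1, which were lower by more than the sum. They therefore do not show a difference beyond that of absorbing cells. The peptide transporter gene slc15a1b, a defining marker of absorbing enterocytes, was at 0 in both libraries. Exocrine pancreas markers, with 18 of 19 tested called lower, summed to 3402 RPM in exposed liver and 39188 RPM in control liver. The part of carried-over intestine or pancreas in the fabp1b.1 and fabp2 values was not tested.

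The forms known from muscle, heart and fat in mammals were nearer to equality. The fabp3 gene had 2116 tags, or 479 RPM, in exposed liver and 2279 tags, or 879 RPM, in control liver. It was 1.84-fold lower in exposed liver (1.73 to 1.95), and at this scaling the whole interval lay under 2-fold. With fabp10a left out of the library totals its log2 ratio was -0.99, against -0.88, which is close to 2-fold lower. It was the second most abundant member in both libraries, at 0.0479% of tags in exposed liver and 0.0879% in control liver. The fabp11a gene had 470 tags, or 106 RPM, in exposed liver and 466 tags, or 180 RPM, in control liver. The nearly equal tag counts came from libraries of unequal depth, and in RPM fabp11a was 1.69-fold lower in exposed liver (1.48 to 1.93).

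The matched markers of heart, skeletal muscle and fat were scarce, and those of gonads were lower in exposed liver. Of 5 heart markers 3 were in the tables, and they summed to 1 tag in exposed liver and 0 in control liver. Of 14 skeletal muscle markers 10 were in the tables, with 34.8 RPM in exposed liver and 28.2 RPM in control liver. The 2 adipocyte markers in the tables summed to 7.92 RPM in exposed liver and 5.40 RPM in control liver. Ovary and oocyte markers summed to 1.58 RPM in exposed liver and 19.7 RPM in control liver, and most of the control value came from the germ cell gene dazl, with 1 tag in exposed liver and 45 tags in control liver. Testis markers summed to 1.58 RPM in exposed liver and 312 RPM in control liver. Macrophage markers, of a cell type in which the mammalian adipocyte form is also made, were lower as well. Of 6 listed, 5 were in the tables and 3 were tested, of which 2 were called lower and 1 neither, and they summed to 59.3 RPM in exposed liver and 312 RPM in control liver. Most of that came from the antigen presentation gene cd74b, at 45.2 RPM in exposed liver and 273 RPM in control liver. The part of any of these tissues or cells in the fabp3 and fabp11a values was not tested.

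The family genes outside the list, both duplicates of the brain form, were lower as well. The fabp7a gene had 77 tags, or 17.4 RPM, in exposed liver and 125 tags, or 48.2 RPM, in control liver. It was called lower, at 2.77-fold (2.07 to 3.73). The fabp7b gene had 1 tag in exposed liver and 8 in control liver, which is below the minimum of 10 tags, and its ratio of 0.0733 had an interval of 0.00165 to 0.547.

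**Figure D2:**
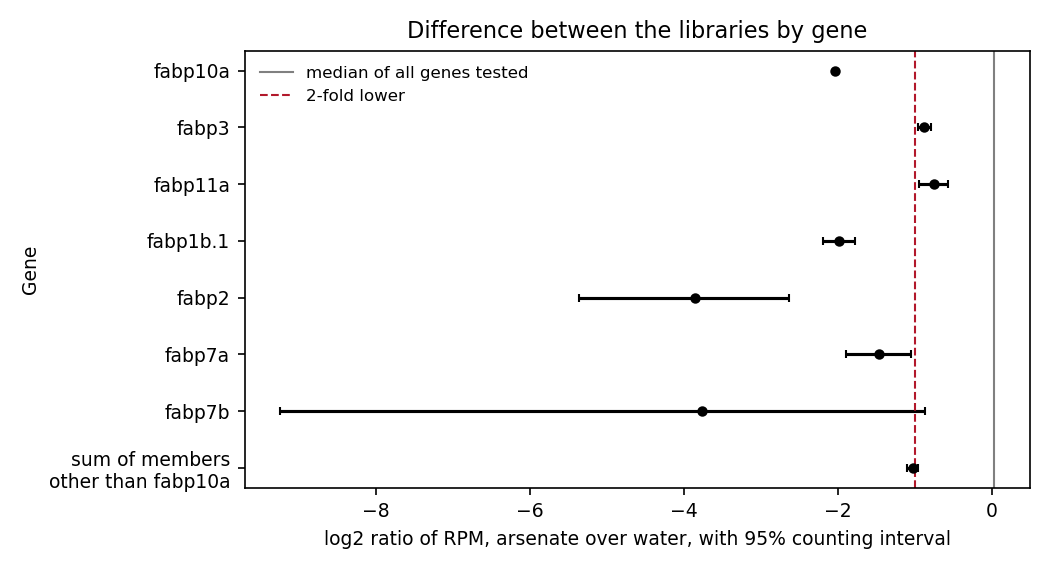
log2 ratio of RPM, arsenate over water, for each gene and for the sum of the 4 members other than fabp10a, with 95% counting intervals. The intervals of fabp3 and fabp11a lie to the right of the dashed line of 2-fold lower, those of fabp10a, fabp1b.1, fabp2 and fabp7a to its left, and the median of all genes tested is at 0.03.

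Compared within each library, where the scaling between libraries drops out, the forms took different positions relative to fabp10a. The liver form had 49.0 tags for each fabp3 tag in exposed liver and 110 in control liver, a quantity 2.24-fold lower in exposed liver (2.11 to 2.38). It had 221 tags for each fabp11a tag in exposed liver and 537 in control liver, 2.44-fold lower (2.14 to 2.78). For fabp1b.1 the quantity was 380 in exposed liver and 395 in control liver, and the ratio of 0.96 had an interval of 0.83 to 1.11. So fabp10a was lower relative to fabp3 and to fabp11a beyond counting error, with tags taken as independent. A difference relative to fabp1b.1 was not detectable at this depth.

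The intestinal form fabp2 stood on the other side. There were 17279 fabp10a tags for each fabp2 tag in exposed liver and 4910 in control liver, 3.52-fold higher in exposed liver (1.51 to 10.04). All 4 other members summed to 2865 tags, or 648 RPM, in exposed liver and 3430 tags, or 1323 RPM, in control liver, 2.04-fold lower (1.94 to 2.15). Of all tags of the 5 members, fabp10a held 97.3% in exposed liver and 98.6% in control liver. The share of fabp3 among them was 1.99% in exposed liver (1.90 to 2.07) and 0.898% in control liver (0.862 to 0.935).

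**Figure D3:**
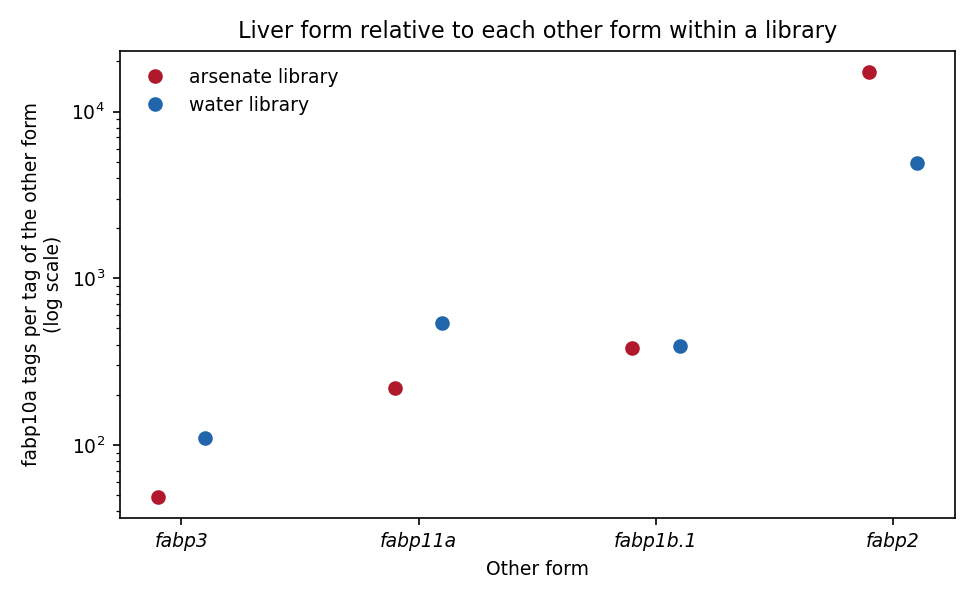
Tags of fabp10a for each tag of another form (log axis), in exposed liver (left point of each pair) and the water library (right point). The arsenate point is lower for fabp3 and fabp11a, close to the water point for fabp1b.1 at 380 against 395, and higher for fabp2.

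The order of the forms by RPM differed at 1 place. In exposed liver it ran fabp10a, fabp3, fabp11a, fabp1b.1, fabp7a, fabp2, fabp7b. In exposed liver fabp1b.1 had 273 tags and fabp11a 470, whereas in control liver fabp1b.1 stood above fabp11a, with 634 tags and 466 tags. The number of fabp1b.1 tags for each fabp11a tag was 2.34-fold lower in exposed liver (1.93 to 2.85). For fabp3 tags per fabp11a tag, a difference between the libraries was not detectable at this depth, at a ratio of 0.92 (0.80 to 1.06).

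Set among all 7839 genes tested, fabp2 had a log2 ratio above 2.12% of them, fabp10a above 6.35% and fabp1b.1 above 6.74%. The values were 19.9% for fabp3 and 23.3% for fabp11a. Genes with a symbol and a mean of at least 100 RPM over the 2 libraries were ranked by nearness to the fabp10a log2 ratio. The nearest 5 were bfb, ucp1, comtd1, nsa2 and si:dkey-14d8.6. Unmatched transcripts were left out of this ranking, and some lay as near. The complement factor gene bfb was at 441 RPM in exposed liver and 1803 RPM in control liver, 4.09-fold lower. The mitochondrial carrier gene ucp1, of the uncoupling proteins, was at 609.8 RPM in exposed liver and 2449 RPM in control liver, 4.02-fold lower. With 2 libraries, likeness in this sense rests on a single ratio.

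**Figure D4:**
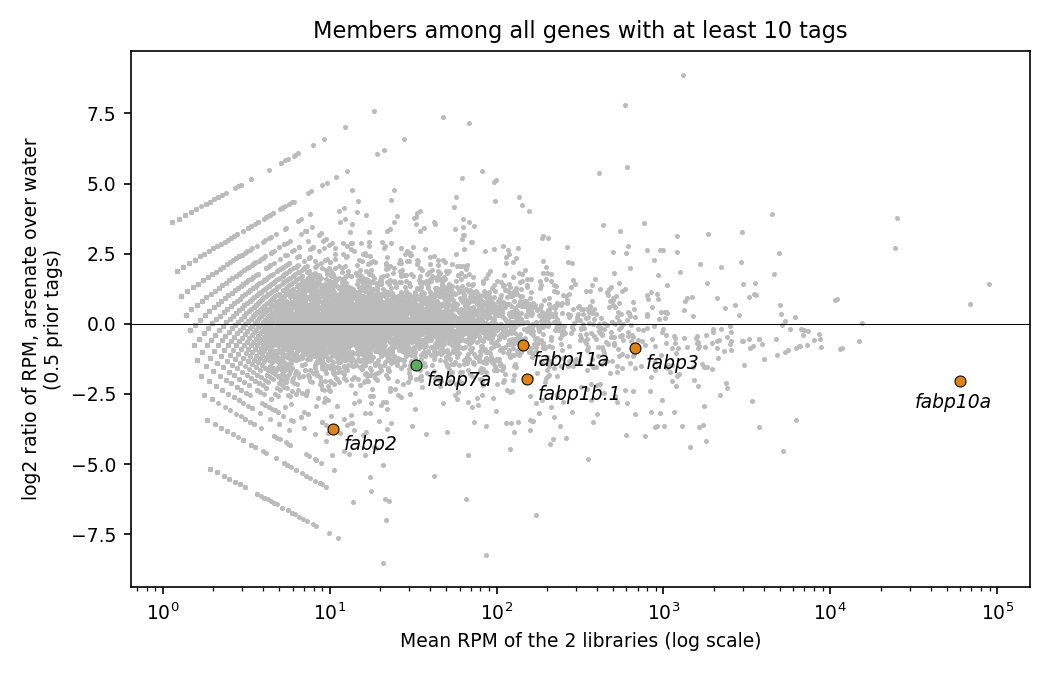
Mean RPM of the 2 libraries (log axis) against the log2 ratio of RPM with 0.5 prior tags, arsenate over water, for all 7839 genes with at least 10 tags (grey), the 5 members (orange) and fabp7a (green). All of the coloured points lie below 0, and fabp10a lies near the right edge of the cloud.

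Cellular retinoid binding proteins, which share the barrel fold and carry retinol or retinoic acid, were lower too. Of 12 listed, 7 were in the tables and 3 had at least 10 tags, and these 3 were all called lower, with a median log2 ratio of -2.38. The retinol binding gene rbp2a was at 212 RPM in exposed liver and 1109 RPM in control liver, 5.22-fold lower (4.85 to 5.62). Its duplicate rbp2b was at 140.5 RPM in exposed liver and 397 RPM in control liver, 2.83-fold lower (2.56 to 3.13). The rbp5 gene had 4 tags in exposed liver and 22 in control liver.

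Genes that bring fatty acids into cells and activate them did not share one direction. Of 27 listed, 14 were tested, of which 4 were called lower, 3 higher and 7 neither, with a median log2 ratio of -0.37. With a minimum of 50 tags the median was -0.59. The 3 called higher had few tags in exposed and control liver: acsl1b 15 and 3, acbd6 13 and 2, scp2b 20 and 3. The ratio intervals of acsl1b (0.829 to 15.8) and acbd6 (0.863 to 34.8) contain equality. The acyl-CoA binding protein gene dbi, the most abundant of the list, was at 2457 RPM in exposed liver and 2567 RPM in control liver, a ratio of 0.957 (0.928 to 0.987) that turned to 1.01 with TMM scaling. The aspartate aminotransferase gene got2a, whose mammalian product was also described as a fatty acid binding protein of the plasma membrane, was at 147 RPM in exposed liver and 221 RPM in control liver. The acyl-CoA synthetase gene acsl5 had 0 tags in exposed liver and 27 in control liver. With the arsenate value set at the limit of 3 tags it was 15.3-fold lower, leaving out counting error in the 27 control tags. The fatty acid transport protein gene slc27a6 had 17 tags in exposed liver and 68 in control liver, 6.82-fold lower (3.96 to 12.4). Its relative slc27a2a, named after its values were seen, had more tags and was 6.63-fold lower, at 49.3 RPM in exposed liver and 327 RPM in control liver.

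Triglyceride and lipoprotein assembly genes had a median log2 ratio of -0.57, with 2 of 12 tested called lower, 1 higher and 9 neither. The apolipoprotein B gene apobb.1 was at 8365 RPM in exposed liver and 15115 RPM in control liver. The acyltransferase gene agpat3 was 3.12-fold lower (2.77 to 3.52). The gene dgat2, whose product makes triglyceride, had 5 tags in exposed liver, the deeper library, and 10 in control liver. Both agpat3 and dgat2 were called lower.

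Lipid-sensing nuclear receptors and liver transcription factors, which include regulators known to act on fatty acid binding protein genes, were mostly within 2-fold. Of 18 tested, 4 were called lower, 0 higher and 14 neither, and the median log2 ratio was -0.14, or 0.075 with the 10 genes with the most tags in each library left out of the totals. The liver factor gene hnf4a had 10 tags in exposed liver and 22 in control liver, 3.75-fold lower (1.70 to 8.87). Its relative hnf4g had 28 tags in exposed liver, the deeper library, and 48 in control liver. Both hnf4a and hnf4g were called lower. The cebpb gene was at 378 RPM in exposed liver and 375 RPM in control liver, and foxa2 was at 59.04 RPM in exposed liver and 82.2 RPM in control liver. The fatty acid receptor gene pparaa, named after its values were seen, had 69 tags in exposed liver and 26 in control liver, and its ratio of 1.56 had an interval of 0.978 to 2.55.

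Bile acids are also ligands of Fabp10a and Fabp6. Of 14 listed genes of bile acid uptake, sensing and synthesis, 5 were in the tables and 3 were tested, of which 1 was called lower and 2 neither. The bile acid exporter subunit gene slc51a was at 893 RPM in exposed liver and 699.7 RPM in control liver, a ratio of 1.28 (1.21 to 1.35). The bile acid receptor gene nr1h4 was at 54.97 RPM in exposed liver and 27 RPM in control liver, a ratio of 2.04 (1.55 to 2.70) that came to just under 2 on the scale of RPM + 1. The cyp7a1 gene, which encodes the first enzyme of bile acid synthesis, had 2 tags in exposed liver and 38 in control liver.

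**Figure D5:**
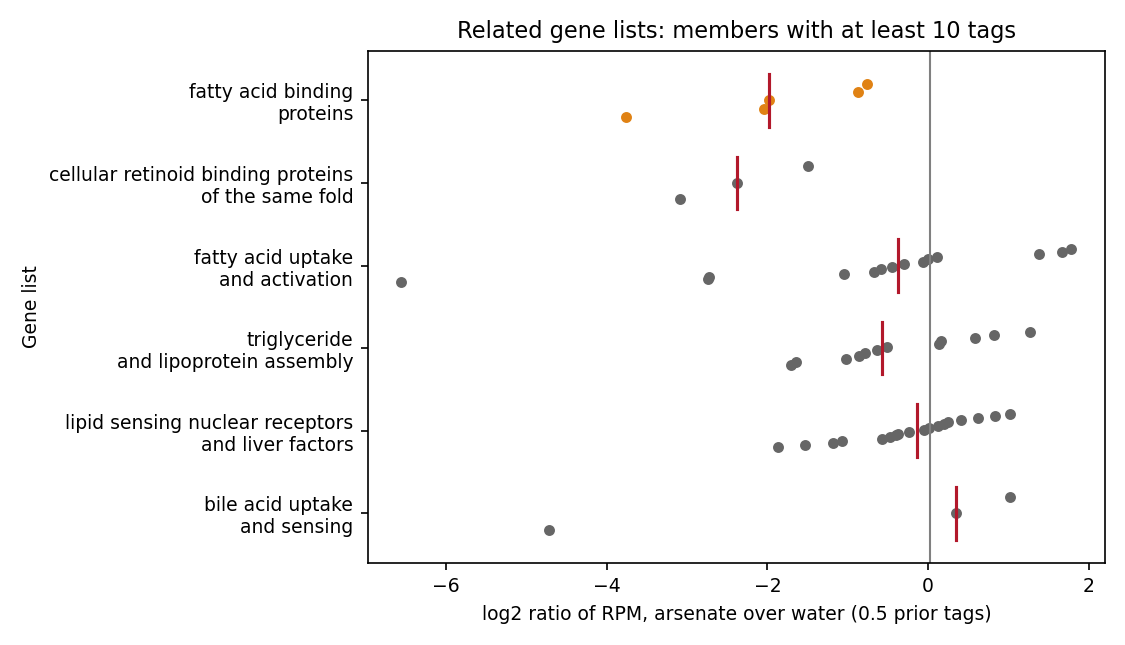
log2 ratio of RPM with 0.5 prior tags, arsenate over water, for the tested genes of each list (points, spread vertically for legibility), with the list median (red bar) and the median of all genes tested (grey line, 0.03). The members and the retinoid binding proteins lie wholly left of the grey line, with medians of -1.98 and -2.38, while the other lists lie on both sides of it.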

How the data were processed

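Liver RNA of 1 arsenate and 1 water library was measured as 3' SAGE tags on the SOLiD system, per the labels' protocols. The authors deposited a value headed TPM for 17991 transcripts per library. These were read as RPM, since 100% of the deposited values were whole multiples of 1 tag, within 0.01 tags, and each column summed to the same total. The sources used here name no mapping tool, genome build or filter.

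Blank cells were set to 0 tags, with an upper limit of 3 tags (0.679 RPM for arsenate, 1.16 RPM for water). Names alone were taken from RefSeq genes of the GRCz12tu assembly: 9463 of 10556 accessions matched, and rows sharing a symbol were summed. Ratios carry no pseudocount unless stated. For ratios between libraries the share of a gene's tags that came from exposed liver was given a Clopper-Pearson interval, which was then converted to a ratio, and intervals of within-library comparisons are those of the conditional odds ratio.

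The members and gene lists were chosen with earlier results of these data known. Named genes were all family genes found, the 2 most abundant genes of each related list, and up to 2 called genes of it with the log2 ratio farthest from 0. The 5 genes with a symbol nearest to fabp10a in log2 ratio were also named. Other genes outside this rule, among them single cell type markers, were named after their values were seen. Alternatives used TMM (edgeR 4.0.16) and median-of-ratios scaling (DESeq2 1.42.0) in R 4.3.3, and totals without abundant genes, thinning and other thresholds in Python 3.11.15 (numpy 2.4.6, pandas 2.3.3, scipy 1.17.1, matplotlib 3.10.9). Tag recovery, the call rule, the binomial test and the ratio intervals were tested on simulated data.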

Additional observations from a re-analysis of the deposited data

How the results depend on the processing

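All 55 recomputed log2 ratios of the 7 family genes and of the summed members other than fabp10a were below 0 with the alternatives. For the other scalings this was fixed in advance, since each moves every log2 ratio by the same amount, at most 0.22 upward. Before these alternatives the ratio nearest to 0 was -0.76, for fabp11a, and the highest fabp11a value among them was -0.54. Each family gene was a single transcript, so the row choice could change nothing. The fabp7b gene had 0 tags in the thinned library and gave no ratio there. For fabp10a the value was -1.96 with TMM scaling, -2.00 with median-of-ratios scaling, -1.83 when the 10 genes with the most tags in each library were left out of the totals, -2.15 without fabp10a and -2.09 without exocrine pancreas markers in the totals, against -2.04. The summed other members were at -0.95, -0.81 and -1.14 with TMM, without those abundant genes and without fabp10a, against -1.03, so they lay on either side of 2-fold. Leaving out the abundant genes moved every log2 ratio by 0.22, brought the share of the other members to 0.111% of arsenate tags and 0.194% of water tags, and turned the median of the receptor and liver factor list to 0.075.

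Of 14 alternatives, 12 kept 3 members lower and all 14 had 0 higher. The count was 5 at 1.5-fold and 2 at 4-fold. The row choice and the minimums of 1 and 50 tags could not change this count. Each member was a single transcript with more than 50 tags in control liver alone. Genes called higher and lower over the table numbered 713 and 565 with at least 50 tags, 2176 and 1913 at 1.5-fold, 303 and 351 at 4-fold, and 580 and 610 with a pseudocount of 5, against 1222 and 1125. The exact binomial test on recovered tags, which says nothing of the conditions, called 1084 higher and 1065 lower, 3 members among those lower. No paired analysis was possible because each group has 1 library. Depth limits fabp2 and fabp7b most, at 6 tags and 1 tag in the arsenate library.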
